A study of Arabidopsis thaliana with 9 samples.

Results

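Anthers of dyt1 and ams mutants of Arabidopsis thaliana were compared directly, with 3 Affymetrix arrays each, over all 13355 genes that a probe set named singly. The 6 arrays belong to a series of 9, and the other 3, from wild type, are shown to tell which mutant departed from it. The wild-type arrays also enter the estimate of the spread on which the calls between the mutants rest. All plants grew at 22 °C with 16 h of light and 8 h of darkness, and anthers at stages 4 to 7 were dissected from young floral buds of plants aged 3 to 4 weeks. The wild type was Col per the labels, which name only the mutated gene for the mutant groups, with no allele, and call the 3 samples of each genotype biological replicates.

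DYT1 and AMS both code for basic helix-loop-helix transcription factors of the tapetum. This layer lines the anther locule, nourishes the meiocytes and microspores, supplies the precursors of the pollen wall and then dies. In Arabidopsis, DYT1 is known to act upstream of AMS, and each mutant is male sterile. The direct comparison therefore asks in which genes loss of the earlier factor and loss of the later one leave the anther in different states.

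The arrays were not alike within dyt1. The 25S ribosomal RNA control probe set read 7.42, 11.50 and 6.20 in dyt1 1, 2 and 3 and 11.59, 11.96 and 12.42 in ams 1, 2 and 3, on the log2 scale. The difference between the 3′ and 5′ actin probe sets, a sign of RNA quality, was 1.04, 2.10 and 1.38 in dyt1 and 2.92, 2.75 and 2.67 in ams. Over all probe sets, dyt1 1 and dyt1 3 correlated at 0.992, while dyt1 2 correlated with them at 0.929 and 0.939. With the ams arrays, dyt1 2 correlated at 0.919 to 0.928 and dyt1 1 and 3 at 0.945 to 0.952. Thus dyt1 2, though nearest to ams in the 25S signal, was the dyt1 array least like ams. Wild type 3, at 12.45, was the wild-type array with a high 25S signal. Genotype and these control signals therefore move together for dyt1 1 and 3, and for this reason each difference was also read in dyt1 2 alone. A difference is said to hold in dyt1 2 where that array lay beyond every ams array on the side of the difference and at least 1 log2 unit from the ams mean. The array is itself 1 of the 3 in the comparison, so this is a description and not a second test.

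Of the 13355 genes, 642 differed between dyt1 and ams (4.81% at an adjusted p under 0.05 in limma's moderated test), with 327 higher in dyt1 (2.45%) and 315 lower in dyt1 (2.36%). The dyt1 and ams values of these 642 genes did not overlap, which was also true of 4358 of all genes (32.6%). Genes lower in dyt1 differed more, with a median of -1.41 on the log2 scale against 0.99 for those higher in dyt1, and 235 and 158 of them differed at least 2-fold. The difference held in dyt1 2 for 381 of the 642 genes (2.85% of all genes). In probe sets, which are counted where settings are compared, 1108 of 22746 were called (4.87%) and 667 held in dyt1 2 (2.93%). By gene, those that held were 217 of the 315 lower in dyt1 (1.62%) and 164 of the 327 higher (1.23%). The rule asks for 1 log2 unit, which many called genes did not reach over the 3 dyt1 arrays either. Of the called genes that differed at least 2-fold, 205 of 235 lower and 130 of 158 higher held. Without asking for a difference by the test, 1786 genes met the same rule for dyt1 2 (13.4%). The other 261 lay on the same side but within 1 log2 unit of the ams mean in dyt1 2, and at a limit of 0.5 in place of 1, 630 of the 642 held. In dyt1 2 alone, the median difference from the ams mean was 1.00 for called genes higher in dyt1 and -1.39 for those lower. These genes were called with dyt1 2 in the comparison, so the medians are no separate support. With the 25S set (signal above or below 11) as a block, 374 of the 642 were still called. The p-values rest on the spread between arrays within each genotype, wild type included, and the 3 arrays a group limit the precision.

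The largest differences were genes near the bottom of the scale in every dyt1 array and bright in ams. ATA27, a tapetal beta-glucosidase and 1 of the markers of this tissue, read 4.00, 3.69 and 3.88 in dyt1 and 11.99, 9.09 and 11.71 in ams, against 7.16, 7.13 and 11.59 in wild type. All 3 dyt1 arrays lay under 4.58. The lower quartiles of the 9 arrays ran from 4.58 to 4.78, and a group mean within or under those limits is not told from background, so no fold is given. The difference of signal was -7.08 (SE 1.19, adjusted p = 0.0151), and dyt1 2 alone stood 7.24 below the ams mean. In whole anthers, fewer tapetal cells and less RNA per cell cannot be told apart. The call for ATA27 was lost when any of dyt1 1, dyt1 3, ams 1 or ams 3 was left out, with adjusted p-values between 0.0562 and 0.0697.

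Other genes shared this layout of values, with wild type 3 above both other wild-type arrays. AT1G68875, which the annotation gives no symbol, read 3.85, 3.81 and 3.76 in dyt1 and 10.98, 9.30 and 10.55 in ams, with 7.86, 7.32 and 11.10 in wild type. Its difference of signal was -6.47 (SE 0.88, adjusted p = 0.00596), and the call was kept with any 1 array left out. AT1G20150 read 3.98, 4.07 and 4.36 in dyt1 and 8.67, 8.98 and 8.14 in ams, with only wild type 3, at 7.53, near the ams level. AT5G13380 and AT5G48210 were also at background in dyt1, with adjusted p-values of 0.0423 and 0.0206, and both calls were lost when the 25S set was a block, where their differences were -3.81 and -3.58 in place of -5.39 and -4.43. Leaving out 1 array also ended the call of AT5G13380 for all arrays but wild type 2 and 3 (adjusted p-values of 0.0523 to 0.15) and that of AT5G48210 for dyt1 1, dyt1 3, ams 1 and ams 3 (0.066 to 0.0816). For AT1G47980, AT4G14815 and AT5G52160 both means were above background, and ams exceeded dyt1 by 33.1-fold, 18.9-fold and 11.5-fold. Within dyt1 the array 2 was the lowest of the 3 in these genes, at 4.90 for AT1G47980 against 7.35 and 8.91, and none of these 3 calls passed with the 25S block. The differences under the block were -5.05, -3.43 and -3.61 on the log2 scale, beside -5.05, -4.24 and -3.53 without it, with adjusted p-values of 0.0918, 0.0923 and 0.0955. Leaving out dyt1 1 or any ams array ended all 3 calls, with adjusted p-values of 0.057 to 0.13 for AT1G47980 (wild type 1 also ended it), 0.0599 to 0.111 for AT4G14815 (dyt1 3 also) and 0.0589 to 0.138 for AT5G52160 (every array but wild type 3). Because neither mutant was called against wild type for these genes, the data do not assign the difference to 1 mutant. Wild type 3 stood above both other wild-type arrays in each of them.

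**Figure D1:**
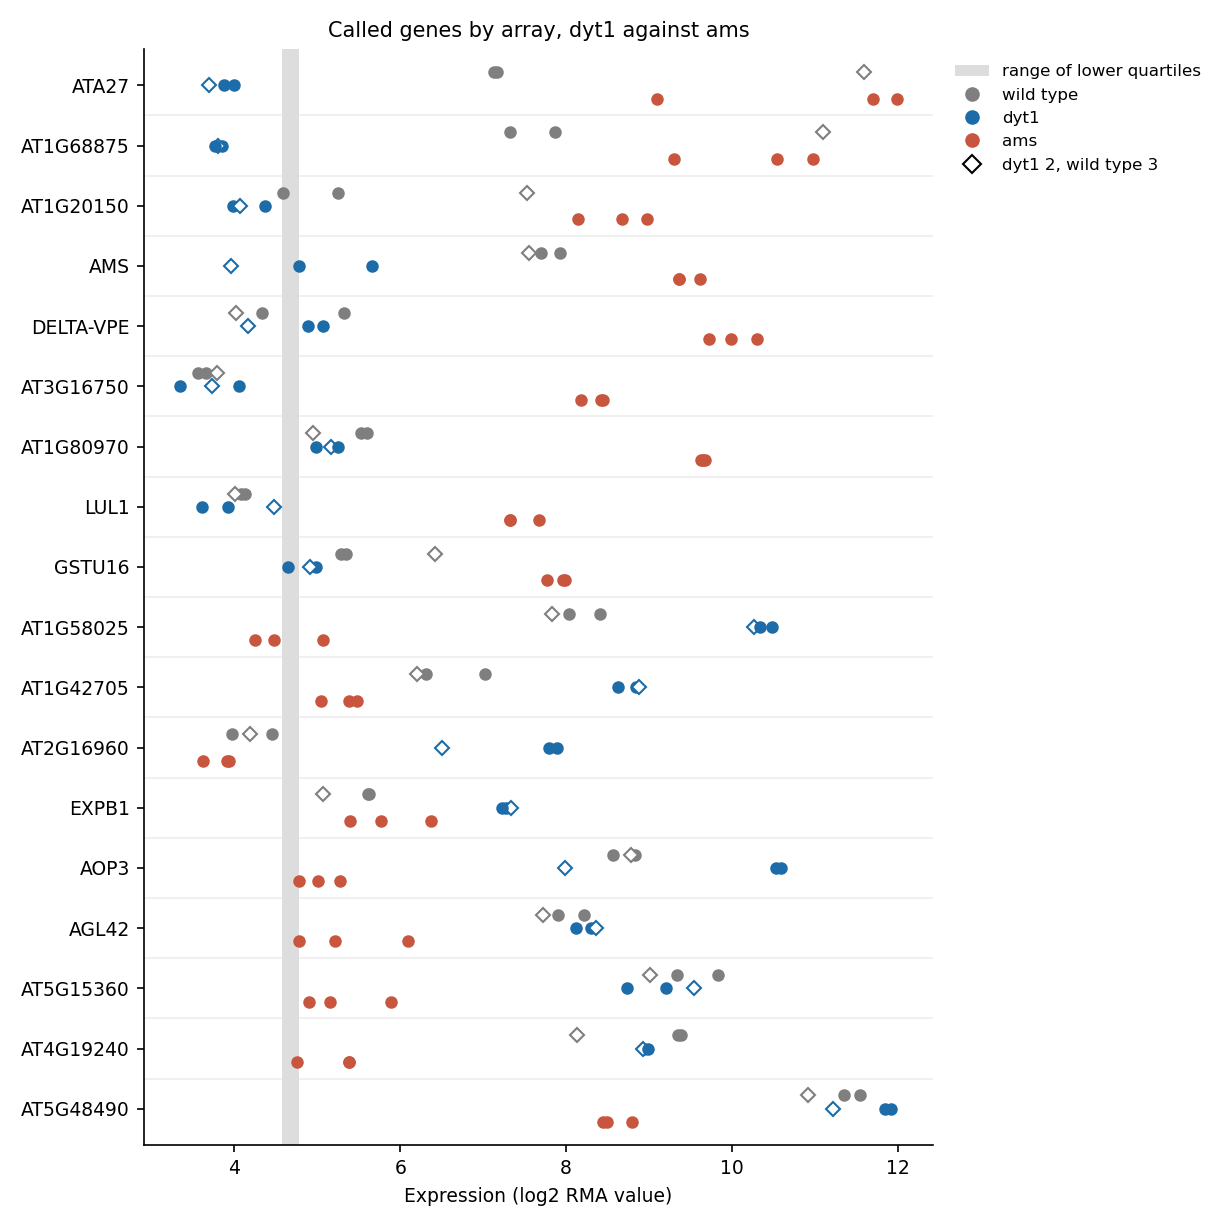
Expression of 18 genes called between dyt1 and ams on each of the 9 arrays, as log2 RMA values. Open diamonds are dyt1 2 and wild type 3, the arrays of those genotypes with a high 25S signal, filled circles are the remaining arrays, and the grey band spans the lower quartiles of the 9 arrays. No dyt1 value overlaps an ams value in any gene shown, and dyt1 2 lies with dyt1 1 and 3 in most of them, AOP3 and AT2G16960 being lower there.

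AMS itself stood apart in both mutants, in opposite directions. Its probe set read 7.93, 7.70 and 7.55 in wild type, 5.66, 3.96 and 4.78 in dyt1 and 9.61, 9.36 and 9.37 in ams. Every dyt1 array was below and every ams array above the 3 wild-type arrays. The difference between the mutants was -4.65 (SE 0.36, adjusted p = 0.000288), and the value in dyt1 2 alone was -5.49. Set against wild type, the level in dyt1 fell by 2.93 (adjusted p = 0.0288) and the level in ams was higher by 1.72 (adjusted p = 0.0413), comparisons that share the wild-type arrays. Where the ams lesion lies relative to the probe set is not given, so the level in ams checks nothing about that label. No probe set names DYT1 here, and its level was not analysed.

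SAG29, a sugar transporter of the SWEET family, and AMY1, an alpha-amylase, were lower in dyt1 as well. SAG29 read 6.88, 5.95 and 6.55 in dyt1 and 9.62, 9.28 and 8.45 in ams, with 10.12, 10.12 and 8.39 in wild type. The level in ams was thus close to wild type and the level in dyt1 below it, although neither comparison with wild type passed the test. The fold between the mutants was 6.30 (adjusted p = 0.024). AMY1 read 5.86, 5.73 and 5.80 in dyt1, below all 3 ams values of 8.29, 7.98 and 7.14 (4.03-fold, adjusted p = 0.0162). Leaving out dyt1 1, dyt1 3, ams 1 or ams 2 ended the calls of SAG29 (adjusted p-values of 0.0598 to 0.0965) and AMY1 (0.0581 to 0.0702). With the 25S block SAG29 was still called, while AMY1 differed by -1.72 and was not (adjusted p = 0.0558).

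Most genes with a placed difference were placed in ams. Of the 642 genes, 278 were called against wild type only in ams, 6 only in dyt1, 3 in both with opposite signs and none in both with 1 sign, and 355 in neither. Over all genes, 466 were called in ams against wild type (3.49%) and 25 in dyt1 against wild type (0.187%), so a gene called in ams alone is also the more frequent kind in the background. Each comparison with wild type had its own Benjamini-Hochberg adjustment, and the fewer calls in dyt1 made its cutoff stricter. The counts placed in each mutant were therefore not taken at 1 cutoff. In 464 of the 642 the ams mean was farther from wild type than the dyt1 mean. The genes lower in dyt1 had median differences from wild type of 1.30 in ams and -0.09 in dyt1. The genes higher in dyt1 had medians of -0.57 in ams and 0.43 in dyt1. Wild type 3 lay below both other wild-type arrays in 208 of the 327 genes higher in dyt1, against 45.0% of all genes, and above them in 148 of the 315 genes lower in dyt1, against 41.4%. That array shares the high 25S signal of ams. Without it, 1694 probe sets were placed only in ams, against 452 with all 9 arrays, while leaving out any other array gave 213 to 714. Control probe sets for spiked-in poly-A RNA averaged 3.89 and 3.76 in wild type 1 and 2. They averaged 7.13 in wild type 3 and 6.73 to 7.25 in the 6 mutant arrays. The part of this control difference in the placements was not tested.

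**Figure D2:**
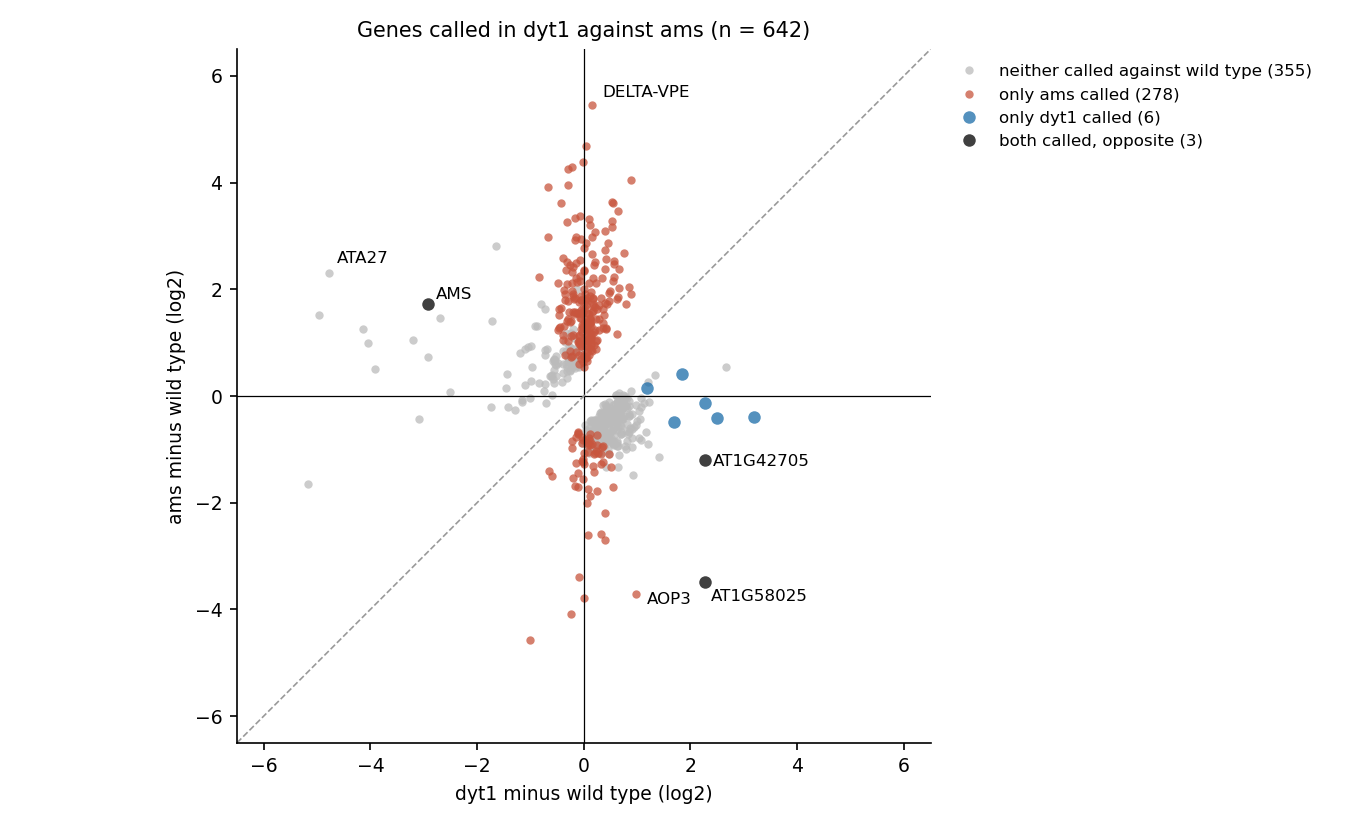
The 642 genes called between dyt1 and ams, plotted by their log2 difference from wild type in dyt1 (horizontal) and in ams (vertical), with the dashed line where both are equal. Colours give which mutant was called against wild type, 278 genes only in ams, 6 only in dyt1 and 3 in both. The axes share the wild-type arrays, and most coloured points lie along the vertical axis.

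A group of 218 genes lower in dyt1 were placed in ams, where they rose. DELTA-VPE, a vacuolar processing enzyme, which is a cysteine protease, read 5.07, 4.17 and 4.89 in dyt1, 5.33, 4.33 and 4.02 in wild type and 9.72, 10.31 and 9.99 in ams. Only the ams arrays were bright, and the difference of signal was -5.30 (SE 0.37, adjusted p = 0.00014), with dyt1 2 alone 5.84 below the ams mean. GSTU16, a glutathione transferase, read 4.98, 4.91 and 4.65 in dyt1, 5.29, 5.34 and 6.43 in wild type and 7.99, 7.77 and 7.96 in ams, an 8.35-fold difference (adjusted p = 0.000749). AT1G80970 read 9.68, 9.62 and 9.65 in ams against 4.98, 5.17 and 5.25 in dyt1 and between 4.95 and 5.60 in wild type, 22.9-fold (adjusted p = 1.12e-05).

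Further genes placed in ams coded for enzymes. CYP71B26, a cytochrome P450, was 8.39-fold higher in ams, UGT88A1, a glycosyltransferase, was 3.32-fold higher, and ATSPS4F, a sucrose phosphate synthase, was 5.35-fold higher. PIP, a proline iminopeptidase, was 4.85-fold higher, and CSLC04, which makes the xyloglucan backbone, was 4.02-fold higher. LUL1, a ubiquitin ligase, BGLU28, a beta-glucosidase, and MSRB5, a methionine sulfoxide reductase, were at background in dyt1 and read 7.32 to 7.68, 6.49 to 8.29 and 6.33 to 7.43 in ams. All of these held in dyt1 2. The calls of CSLC04 and ATSPS4F were lost with dyt1 1 or any ams array left out, among others (adjusted p-values of 0.0549 to 0.134 and 0.0533 to 0.11). CSLA01, placed in neither mutant and a glucomannan synthase, was 4.39-fold higher in ams (adjusted p = 0.0387), but its ams values spread from 6.46 to 8.43 and the call was lost in a fit of the 6 mutant arrays alone, with the 25S block and with any array but wild type 3, dyt1 2 and ams 1 left out (0.058 to 0.134). AT3G16750, AT5G56380 and AT2G01090 were at background in dyt1 and lay between 8.16 and 9.04 in every ams array, and AT4G19500 was 11.9-fold higher there. Members of a family did not always go together. LHCB4.2, an antenna protein of photosystem II, was 2.02-fold higher in ams (adjusted p = 0.0191), whereas its relative LHCB4.1 differed by -0.11 (adjusted p = 0.797). The call of LHCB4.2 was lost without dyt1 3, ams 1 or ams 2 (0.077 to 0.0831). The difference between these relatives was not tested.

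A smaller group of 60 genes higher in dyt1 were low only in ams. AOP3, a dioxygenase of glucosinolate side-chain modification, read 8.57, 8.83 and 8.78 in wild type, 10.59, 7.99 and 10.53 in dyt1 and between 4.78 and 5.28 in ams. The ams arrays were the lowest and dyt1 2 lay closer to wild type than dyt1 1 and 3 did. The fold was 25.6 over the 3 arrays (SE 0.60 on the log2 scale, adjusted p = 0.00466), and the difference was 2.97 in dyt1 2 alone. AGL42, a MADS-box factor, read 8.31, 8.36 and 8.12 in dyt1, near the wild-type 7.91, 8.22 and 7.72, and 5.21, 6.09 and 4.78 in ams, 7.47-fold (adjusted p = 0.00155). AT5G48490 was bright in all wild-type and dyt1 arrays, between 10.92 and 11.92, and stood at 8.49, 8.79 and 8.44 in ams (8.50-fold, adjusted p = 0.000278). AT5G15360 and AT4G19240 read 8.73 to 9.54 and 8.93 to 8.98 in dyt1 and 4.90 to 5.89 and 4.75 to 5.38 in ams, 14.4-fold and 13.8-fold apart. In AGL42 and AT5G15360 dyt1 2 was the highest of the dyt1 arrays. AT3G44070 differed 9.93-fold and AT4G18975 4.72-fold, and both held in dyt1 2.

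The 6 genes called only in dyt1 and the opposite pair of AT1G58025 and AT1G42705 rose in dyt1. AT1G58025 read 8.41, 8.03 and 7.83 in wild type, 10.48, 10.26 and 10.33 in dyt1 and 4.25, 4.48 and 5.07 in ams. All 3 dyt1 arrays were above and all 3 ams arrays below wild type, and the ams mean was at background. The difference of signal was 5.76 (SE 0.24, adjusted p = 1.12e-05), and dyt1 2 alone gave 5.66. AT1G42705, a pseudogene in RefSeq read by a probe set of the kind that can also detect related transcripts, read 8.85, 8.88 and 8.62 in dyt1 and 5.04, 5.38 and 5.48 in ams, with 7.02, 6.31 and 6.20 in wild type (11.2-fold, adjusted p = 0.000129). AT2G16960, placed in dyt1 alone, read between 6.51 and 7.89 there, lowest in dyt1 2, and between 3.62 and 4.46 in wild type and ams. EXPB1, a beta-expansin, a class that loosens cell walls, read 7.27, 7.33 and 7.23 in dyt1, 5.62, 5.62 and 5.07 in wild type and 5.77, 6.37 and 5.39 in ams. Its fold of 2.70 (adjusted p = 0.0193) held in dyt1 2 but was not called with the 25S block, where the difference was 1.28 in place of 1.43 (adjusted p = 0.0617), or without dyt1 1, dyt1 3, ams 1 or ams 3 (0.065 to 0.0807). AT4G03156 and AT1G35650 were at background in ams and 5.82 to 7.14 in dyt1, and AT4G22390 was 4.50-fold higher in dyt1. AT1G35650, a pseudogene in RefSeq, and AT4G22390 are read by probe sets of the shared kind too.

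Most of the genes higher in dyt1 differed less, 158 of the 327 reaching 2-fold. DIM1A, a ribosomal RNA dimethyltransferase, read 8.85, 8.87 and 9.14 in dyt1 and 7.45, 7.56 and 7.73 in ams (2.60-fold, adjusted p = 0.00483). SE, a zinc finger protein of microRNA processing, read 8.63, 8.29 and 8.64 in dyt1 and 7.39, 7.09 and 7.18 in ams (2.46-fold, adjusted p = 0.0098). UBP16, a deubiquitinating enzyme, read 9.09, 8.98 and 9.08 in dyt1 and 7.69, 7.71 and 7.74 in ams (2.53-fold, adjusted p = 0.0191). The 3 genes held in dyt1 2, with every dyt1 array above every ams array. The call of SE was lost without dyt1 3 (0.0516), and that of UBP16 without dyt1 1, dyt1 3 or any ams array (0.0706 to 0.0803). RAD51B, a recombination protein, was 2.21-fold higher in dyt1, and FY, a factor of messenger RNA 3′-end formation, 2.03-fold, while SIZ1, a SUMO ligase, was 1.72-fold higher and SLY1, an F-box protein of gibberellin signalling, 1.56-fold. SEU, a corepressor, and PKDM7D, a histone demethylase, differed 2.27-fold and 2.30-fold over the 3 arrays but, in log2 units, by 0.96 and 0.71 in dyt1 2 alone, under the limit of 1. SLY1 and SIZ1 also missed that limit, at 0.90 and 0.87. With the 25S block SLY1, PKDM7D, SIZ1 and FY were not called (adjusted p-values of 0.0503 to 0.0693), their differences there being 0.74, 0.75, 0.76 and 0.94. Against wild type, SE and UBP16 were called only in ams, where they fell by 0.94 and 1.06, and DIM1A, RAD51B, FY, SIZ1, SLY1, SEU and PKDM7D were called in neither mutant. Differences of this size between the mutants depended on the scaling. When arrays were instead centred on 3 reference genes, 242 probe sets were called higher in dyt1 and 1090 lower, against 557 and 551 as deposited, and the calls of SIZ1, SLY1 and PKDM7D were among those lost. The calls of SIZ1, SLY1, PKDM7D, SEU and FY were each lost with dyt1 1 or ams 1 left out, among others (0.0513 to 0.143 over these genes). The reference genes themselves had a median difference of 0.38, and none was called.

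Among genes that did not hold in dyt1 2, the largest differences were moderate. AT4G25710 was 3.13-fold higher in ams, at 7.55, 8.54 and 7.43 in dyt1 and 9.34, 9.45 and 9.66 in ams, with dyt1 2 the nearest to ams at 0.95 below its mean. AT2G07707, read by a probe set of the shared kind, was 3.43-fold higher in dyt1, at 9.85, 8.40 and 10.05 against 7.75, 7.53 and 7.69, with dyt1 2 only 0.75 above the ams mean. In both, dyt1 2 lay between the other dyt1 arrays and ams. Both calls were lost without dyt1 1, dyt1 3 or any ams array (0.0791 to 0.0973 for AT4G25710 and, with wild type 1 and 2 too, 0.0537 to 0.143 for AT2G07707).

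**Figure D3:**
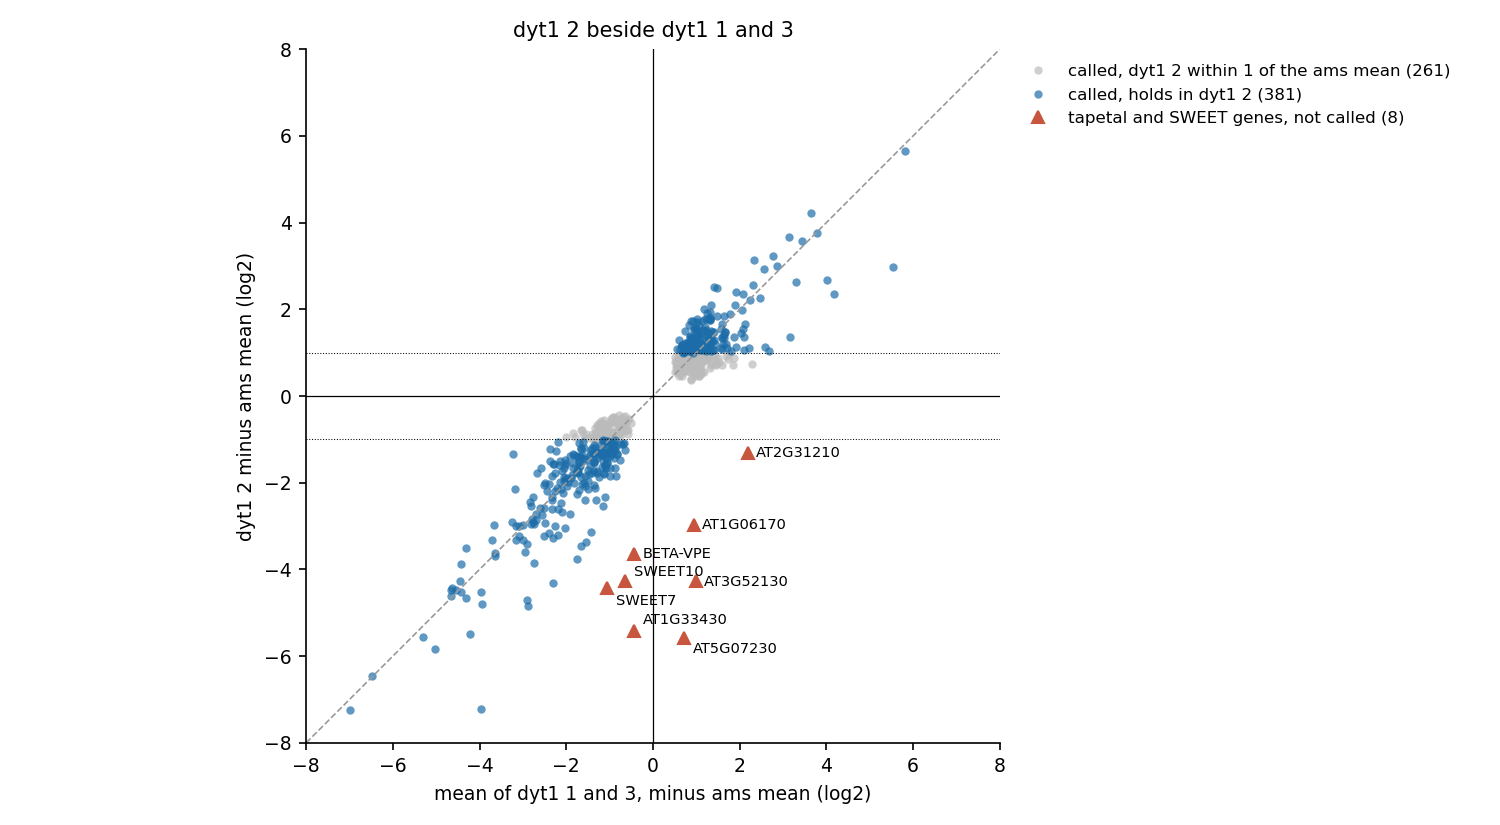
Difference from the ams mean in dyt1 2 (vertical) against that in the mean of dyt1 1 and 3 (horizontal), in log2 units, with dotted lines at 1 and -1. The blue points are the 381 called genes that hold in dyt1 2, the grey points the 261 that do not, and the triangles 8 tapetal and SWEET genes that were not called over the 3 dyt1 arrays. Those triangles lie far below the dashed line of equality.

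In several tapetal genes that did not pass the test, dyt1 2 stood apart from dyt1 1 and 3. AT5G07230, from the list of tapetal lipid transfer and pollen coat genes, read 13.02, 12.89 and 13.07 in wild type, 11.12, 4.68 and 10.81 in dyt1 and 10.44, 10.33 and 9.99 in ams. In that gene dyt1 2 was at background, 5.57 below the ams mean, whereas dyt1 1 and 3 were 0.71 above it. Fits that split dyt1 by array leave dyt1 2 and wild type 3 each alone in a group. Neither array adds to the spread in those fits, which assume that the lone array varies like the rest. AT1G33430, from the sporopollenin and exine list, read 10.90, 5.73 and 10.52 in dyt1 and 11.92, 10.45 and 11.06 in ams, and dyt1 2, 5.41 below the ams mean, was the only dyt1 array outside the ams range. AT1G06170 and AT2G31210, listed among tapetum transcription factors, were 2.97 and 1.31 below the ams mean in dyt1 2 and 0.94 and 2.18 above it in dyt1 1 and 3.

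The same layout appeared in genes of protease and sugar transport families. BETA-VPE read 8.38, 5.25 and 8.52 in dyt1 and 9.47, 8.91 and 8.28 in ams. SWEET10, of the sugar transporter family, read 9.72 and 9.51 in dyt1 1 and 3 and 9.89, 10.54 and 10.36 in ams, with dyt1 2 standing 4.26 below the ams mean. SWEET7 read 6.94, 3.39 and 6.58 in dyt1 and 8.57, 7.39 and 7.46 in ams. In all 3 genes dyt1 2 was the lowest of the 6 mutant arrays, and none was called over the 3 dyt1 arrays. SHT, a spermidine hydroxycinnamoyl transferase of the pollen surface, differed in a way common to all dyt1 arrays, at 5.27, 4.84 and 5.08 against 10.33, 7.70 and 8.76 in ams. Its difference of -3.87 did not pass (adjusted p = 0.111).

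**Figure D4:**
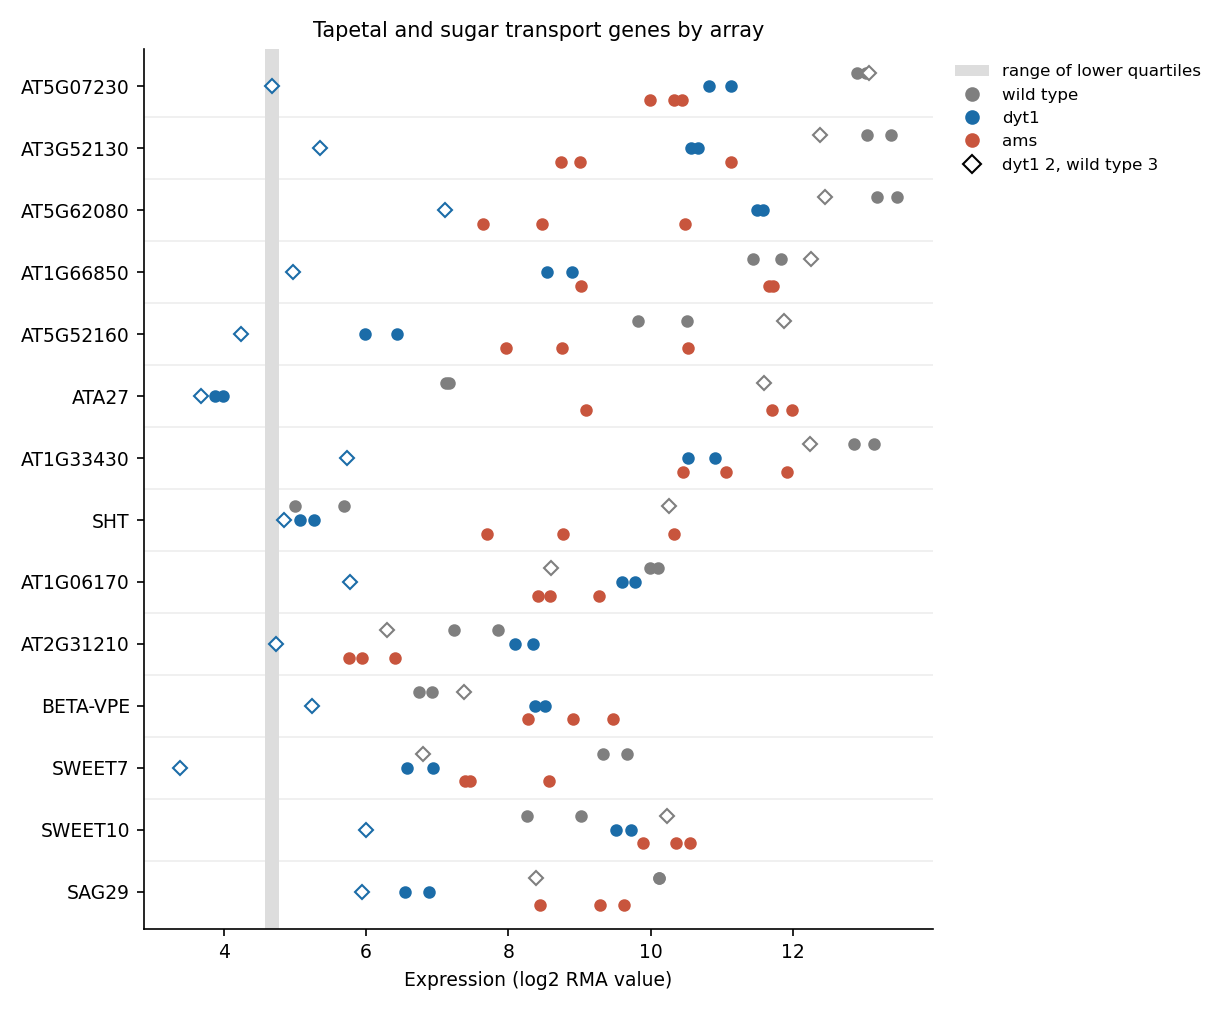
Expression of 14 tapetal and sugar transporter genes on each of the 9 arrays, as log2 RMA values, with open diamonds for dyt1 2 and wild type 3 and the grey band for the span of the lower quartiles. In AT5G07230, AT1G33430, SWEET7 and SWEET10 the dyt1 2 diamond lies well below the 2 other dyt1 arrays, whereas in ATA27 the 3 dyt1 arrays lie together.

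Over the 4 tapetal lists, 22 genes were measured and 4 were called, namely AMS, ATA27, AT5G52160 and DELTA-VPE. All 4 were lower in dyt1 than in ams. For comparison, 2.36% of all genes were called lower. Against wild type, DELTA-VPE was called only in ams, where it rose, and AMS in both mutants with opposite signs. ATA27 and AT5G52160 were called in neither. The medians of the difference were 0.51 for 5 tapetum transcription factors, -2.09 for 3 sporopollenin and exine genes, -1.86 for 8 lipid transfer and pollen coat genes and -0.98 for 6 proteolysis and cell death genes, beside 0.07 for all genes. In the fits that split dyt1, 15 of the 22 were called for dyt1 2, 14 of them lower, and 9 for dyt1 1 and 3, 5 of them lower. The background in these fits was 24.1% and 24.6% of all genes. The median over the 22 genes was -2.76 in dyt1 2 and -0.17 in dyt1 1 and 3, and dyt1 2 was below the mean of the others in 20 of the 22.

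Of 69 measured genes of the plastid genome, 2 were called, both higher in dyt1, a share of 2.90% beside 4.81% of all genes called and 2.45% called higher. The median difference was 0.98, beside 0.07 over all genes. The 2 were rps4 and rps14, which code for plastid ribosomal proteins. Rps4 read 13.32, 12.26 and 13.26 in dyt1 and 11.05, 11.47 and 11.06 in ams (3.36-fold, adjusted p = 0.0191), and it held in dyt1 2. Both calls were lost without dyt1 3 or any ams array, among others (0.0501 to 0.0837 for rps4 and 0.0631 to 0.137 for rps14). Rps14 was not called with the 25S block (1.51, adjusted p = 0.122) and did not pass in dyt1 2 alone (1.14, adjusted p = 0.127), while rps4 passed in both. In the split fits, 53 of the 69 were called higher in dyt1 1 and 3, while in dyt1 2 only rps4 was called higher and 10 were called lower, beside 24.6% and 24.1% of all genes called in those fits. The array medians over the 69 genes were 10.28, 7.76 and 9.95 in dyt1 and 7.86, 8.00 and 8.25 in ams, with 9.28, 10.01 and 8.49 in wild type. The 5 arrays with 25S signal above 11, which are wild type 3, dyt1 2 and the ams arrays, were thus all lower than the other 4, and the actin 3′ to 5′ difference was 2.10 to 2.92 in those 5 and 1.04 to 1.38 in the other 4. The part of these signals in the list's median was not tested.

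Among 15 SWEET genes, SAG29 alone was called (6.67%, beside 4.81% of all genes), with a list median of -0.60. SWEET11, which read 5.62, 5.58 and 5.31 in dyt1 and 6.22, 7.09 and 6.94 in ams, differed by -1.25 (adjusted p = 0.055). In the split fits 7 of the 15 were called in dyt1 2, all lower, and 6 in dyt1 1 and 3, of which 4 were lower and SWEET1 and SWEET16 were higher, by 0.54 and 0.50. The share of all genes called in those fits was 24.1% and 24.6%.

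Lists for other cell types of the anther held few measured genes, too few for a count of calls to be read against the 4.81% of all genes called. None of 7 meiosis genes was called (median -0.08). ATMND1, a recombination factor, differed by 0.58 (adjusted p = 0.438) and AT1G12790 by 1.10 (adjusted p = 0.248). For AT1G12790 the difference from the ams mean was -0.16 in dyt1 2 and 1.73 in dyt1 1 and 3. None of 4 early anther cell fate genes was called, SPL, which specifies sporogenous cells, differing by 0.40 and NUB by 0.64. Of 4 maturing pollen genes only MGH3, a histone of the male gametes, was called, reading 5.62, 5.12 and 5.55 in dyt1 and 4.44, 4.33 and 4.75 in ams, where its mean is at background (adjusted p = 0.0391, lost without any array but wild type 3 or dyt1 2, 0.0567 to 0.138). That difference did not hold in dyt1 2, at 0.62, and was not called with the 25S block (0.63, adjusted p = 0.0832). The carpel and ovule genes INO and SPT differed by -0.46 and 0.27, and neither was called. Of the markers fixed for tissue identity, ATA27, AT5G07230 (A9), AMS, SDS, MGH3, ACT12, INO, LHCB4.1 and LHCB4.2 were among those measured. Others, DYT1 among them, are not named by a probe set used here. ATA27 was not told from background in dyt1, while AT5G07230 of the tapetal lists was bright in dyt1 1 and 3.

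**Figure D5:**
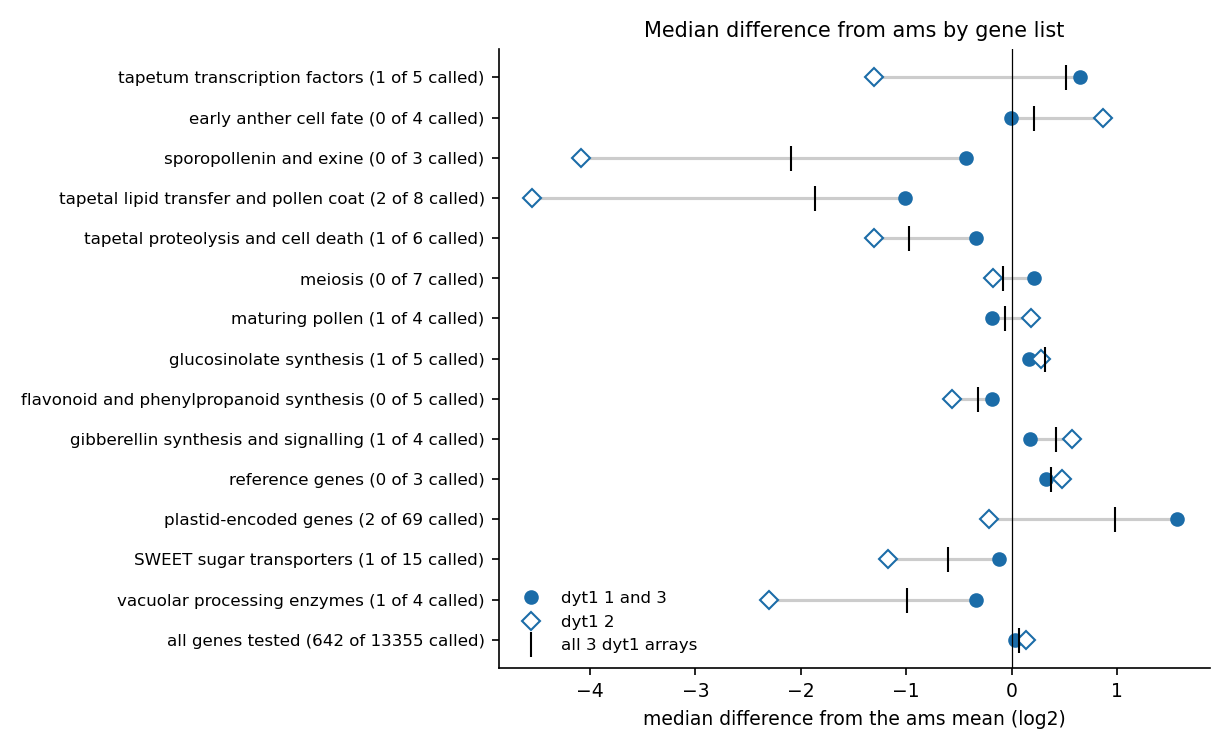
Median log2 difference from the ams mean for each gene list with at least 3 measured genes, as a filled circle for dyt1 1 and 3, an open diamond for dyt1 2 and a bar for all 3 dyt1 arrays, with the number of called genes in brackets. The tapetal lists and the plastid-encoded genes have diamonds far to the left of their circles, and all genes lie near 0.

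Families outside these lists are given beside the 4.81% of all genes called, and nothing is read from counts this small. Of 47 glycosyltransferases named UGT, 2 were called (4.26%), both lower in dyt1, and of 26 cytochrome P450 genes, 2 were called lower in dyt1 (7.69%). Of 40 AGAMOUS-like MADS-box genes, 2 were called (5.0%), both higher in dyt1. Of 14 expansins, 2 were called (14.3%), of which EXPB1 was higher and EXPA9 lower in dyt1, EXPA9 reading 4.84, 4.51 and 5.11 in dyt1 and 6.21, 6.36 and 5.90 in ams. None of 29 serine carboxypeptidase-like genes and none of 22 trichome birefringence-like genes was called. The called genes were spread over the 5 chromosomes, at 4.43% to 5.22% of the genes tested on each. Around the DYT1 and AMS loci, 5 and 6 of the nearest 100 genes were called.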

How the data were processed

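Biotin-labelled total RNA from dissected anthers was hybridized to Affymetrix arrays, per the labels. The authors deposited 1 log2 value for each probe set and array. RMA is the tool that the submitters' processing notes name, without a version. Of 22810 probe sets, 64 controls were left out, and 22746 were tested. The annotation named 1 gene for 13513 probe sets and none for 8730, and 13436 took RefSeq symbols (TAIR10.1). The brightest probe set on average stands for its gene, and the probe sets of 25 among 147 multi-set genes differed in their call.

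Genotype means of all 9 arrays were estimated by limma 3.58.1 in R 4.3.3 (lmFit, eBayes), with Benjamini-Hochberg adjustment over 22746 probe sets. Tests of dyt1 2 alone split dyt1 and wild type by 25S signal at 11. In simulated data with 200 changed of 22746 probe sets, 33%, 80.5% and 91% were recovered at 2-, 4- and 8-fold for dyt1 against ams. There were 2, 10 and 12 false calls. The simulated noise was independent for each probe set and array, so arrays that deviate in many genes together, such as dyt1 2, are not represented.

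Members and lists were chosen with earlier results of these data known. Named genes were the largest differences in each direction, above and at background, those that held or did not hold in dyt1 2, the strongest of each placement against wild type and the strongest of each list. SAG29, AMY1, enzymes and regulators with symbols, and the tapetal and SWEET genes that were not called, were chosen after their values were seen. No sequences were used.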

Additional observations from a re-analysis of the deposited data

Results flagged for a closer look

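Among the genes called between the mutants, 3 differed from wild type in both mutants with opposite signs. AMS was 4.65 log2 units lower in dyt1 than in ams (-4.65), below wild type in every dyt1 array and above it in every ams array. AT1G58025 was higher in dyt1 by 5.76 and AT1G42705 by 3.48, both above wild type in every dyt1 array and below it in every ams array. The difference between the mutants is the direct contrast of the report, which passed the test for all 3.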

How the results depend on the processing

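Against 1108 probe sets called, 667 of them holding in dyt1 2 and 452 placed only in ams, other settings gave the following. The number called was 1979 with the 6 mutant arrays alone, 8956 with array weights, 729 with the replicate block, 3487 within the high-25S arrays, 5580 for dyt1 2 alone, 5958 for dyt1 1 and 3, 708 at 2-fold and 289 at an adjusted p under 0.01. Leaving out 1 array gave 354 to 2945, the most without wild type 3 and 2130 without dyt1 2. Those holding in dyt1 2 numbered 1638 with array weights, 2481 within the high-25S arrays, 2819 for dyt1 2 alone, 1326 for dyt1 1 and 3 and 266 at 0.01, and 320 to 1178 with an array left out. Placed only in ams were 3616 with array weights, 866 for dyt1 2 alone, 939 for dyt1 1 and 3, 231 at 0.01 and 213 to 1694 with an array left out, the most without wild type 3. Within the high-25S arrays and for dyt1 2 alone, the call and the hold rule read the same single dyt1 array. Those counts of holding probe sets are therefore no separate check. With a limit of 0.5, 630 genes held in place of 381. Of the 642 called genes, 174 stayed called in all 9 omissions (52 higher and 122 lower in dyt1), 161 of them holding in dyt1 2. Of 91 named called genes, 49 lost the call under at least 1 setting. None reversed, but their dyt1 and ams values do not overlap, so leaving arrays out or weighting them could not turn a sign. Reversals were limited to 10 named genes that were not called. With array weights, AT1G06170 became 0.79, AT3G52130 0.82, AT5G07230 0.47 and LHCB4.1 0.040. With dyt1 1 and 3 alone, AT1G06170 became 0.94, AT3G52130 0.98, AT5G07230 0.71, LHCB4.1 0.076, JMT 0.25 and SPT -0.060. Within the high-25S arrays or in dyt1 2 alone, AT1G12790 became -0.16, AT2G31210 -1.31 and AT5G62080 -1.75, and with the 25S block AT2G31210 became -0.56 and AT5G62080 -0.57. UF3GT became -0.0070 with reference centring. With an array left out, AT1G06170 ran from -1.06 to 0.94, AT3G52130 from -1.67 to 0.98, AT5G07230 from -2.51 to 0.71, JMT from -0.47 to 0.38, LHCB4.1 from -0.21 to 0.076 and SPT from -0.060 to 0.52, the sign turning without dyt1 2 in each and, for JMT, also without dyt1 3 or ams 1. Fewer arrays are part of the omissions' construction, and the cause of the other changes was not tested. The labels tie the sample numbers to nothing shared. In their deviations from the group means, same-numbered dyt1 and ams arrays correlated at 0.098, 0.124 and -0.003. Arrays with different numbers correlated at -0.117 to 0.111. With 3 arrays a group, these values cannot decide whether the arrays were paired. The replicate block shared 669 of its 729 calls with the 1108. The motif alternative was not run.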
